A study of Arabidopsis thaliana with 6 samples.

Results

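The glyoxylate cycle and peroxisomal beta-oxidation were followed through 10 Arabidopsis thaliana genes, taken by locus identifier for their place in the pathway, out of 24487 genes in the deposited expression table. They are LACS6 (AT3G05970) and LACS7 (AT5G27600), the peroxisomal long-chain acyl-CoA synthetases, ACX1 (AT4G16760) and ACX2 (AT5G65110), acyl-CoA oxidases, MFP2 (AT3G06860) and AIM1 (AT4G29010), the multifunctional proteins, KAT2 (AT2G33150), the ketoacyl-CoA thiolase, ICL (AT3G21720), isocitrate lyase, MLS (AT5G03860), malate synthase, and PCK1 (AT4G37870), phosphoenolpyruvate carboxykinase. All 10 were in the table, and all 10 passed the filter of a mean of at least 10 normalized counts, as did 20222 genes in all.

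Arabidopsis seeds store carbon as oil. After germination a lipase frees fatty acids from the oil bodies, and peroxisomes, at this stage also called glyoxysomes, activate them to acyl-CoA and shorten them by beta-oxidation to acetyl-CoA. ICL and MLS, the enzymes that set the glyoxylate cycle apart from the citric acid cycle, turn acetyl-CoA into organic acids, and phosphoenolpyruvate carboxykinase leads these into gluconeogenesis and sucrose. A seedling in the dark cannot photosynthesise and lives on this route. In light the same organelles take on leaf-type enzymes of photorespiration while ICL and MLS are lost.

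RNA came from seedlings of the atino80-6 mutant (3 libraries) and of the wild type (3 libraries). Both had spent more than 3 days cold in the dark and then 4 days at 22 °C without light, on MS agar medium. The labels give neither the kind of allele in atino80-6 nor whether libraries came from separate cultures, so p-values measure only the spread between these samples. In such bulk RNA, a different share of cells and a different amount of RNA per cell cannot be told apart.

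The recovered reads per library lay between 18446028 and 24156610. INO80 (AT3G57300), the chromatin remodeller after which the mutant is named, had 158, 185 and 187 FPKM in the libraries labelled atino80-6 and 31.4, 34.7 and 32.3 FPKM in wild type, so the transcript does not show a loss and each direction rests on the labels. The median absolute log2 difference between replicates was 0.15 for atino80-6 1 and 2 and 0.12 for wild type 2 and 3, against 0.18 to 0.20 for pairs with atino80-6 3 or wild type 1. These 2 libraries stood apart, and results were also computed without them. Of the seedling markers, those of root (PYK10, SCR, PIN2), shoot meristem (STM) and epidermis (ATML1) were detected in every library. Flower markers AG, SEP3 and AP3 summed to at most 0.298 FPKM in any library, and AP1 was not analysed here.

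Transcripts of the enzymes that define the glyoxylate cycle were more than doubled in the libraries labelled atino80-6, ICL 2.26-fold and MLS 2.67-fold, while PCK1 at the exit to gluconeogenesis stood at a ratio of 1.02. Along beta-oxidation the genes did not move together. LACS7 and MFP2 rose by 1.33-fold and 1.38-fold, ACX2 fell to 0.830 of wild type, and LACS6, ACX1, AIM1 and KAT2 did not pass the test. In counts, 4 of the 10 genes were higher, where 17.7% of all tested genes were, and 1 was lower, where 16.6% of all tested genes were (limma, adjusted p under 0.05). The 10 genes and the lists below were chosen with earlier results of these data known, so such shares are descriptions and not tests. The median log2 change of the 10 was 0.18 and that of all tested genes 0.00, with changes in both directions among the 10 and those of ICL and MLS above 1.

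The genotypes did not overlap for 7 of the 10 genes. All 3 atino80-6 libraries lay above all 3 of wild type for 5 of them (24.1% of tested genes) and below for 2 (24.2% of tested genes). In the authors' deposited table, 5 of the 10 were higher, against 16.1% of the genes with an adjusted p there, and 1 was lower, against 15.1%. The gene that passed there and not in limma was KAT2.

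**Figure D1:**
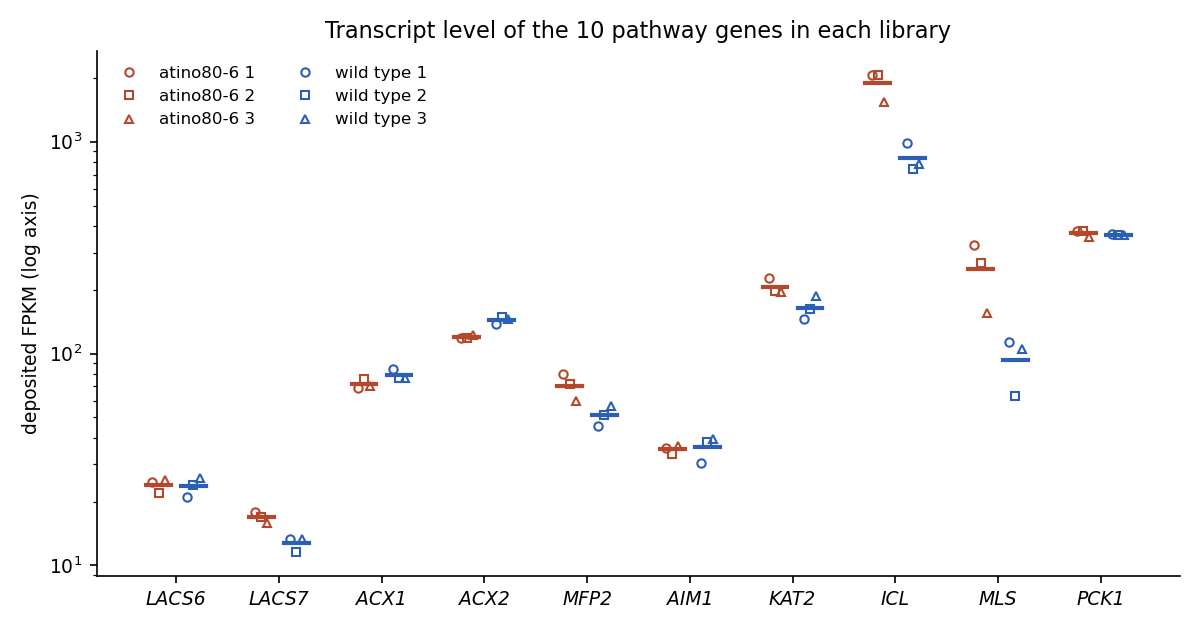
Deposited FPKM (log axis) of the 10 genes in pathway order, with 3 atino80-6 libraries on the left and 3 wild type libraries on the right of each gene; symbols mark the library number and bars the group means. ICL lies highest in both genotypes, at 1893 and 839 FPKM, and LACS7 lowest, at 16.9 and 12.7 FPKM.

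The acyl-CoA synthetases, which activate free fatty acids inside the peroxisome and can stand in for each other, differed in how they behaved. LACS7 had 17.9, 17 and 15.8 FPKM in the libraries labelled atino80-6, against 13.3, 11.6 and 13.3 FPKM in wild type. Every atino80-6 library was above every wild type library, and the log2 change was 0.41 ± 0.09 (SE, n = 3 each; limma adjusted p = 0.0065). LACS6 had 24.9, 22.0 and 25.2 FPKM in the libraries labelled atino80-6, against 21.1, 24.0 and 25.8 FPKM in wild type. These values overlapped throughout, with a log2 change of 0.03 ± 0.10 (adjusted p = 0.85). LACS7 accordingly made up 41.8%, 43.7% and 38.5% of the summed LACS6 and LACS7 FPKM in atino80-6, against 38.7%, 32.6% and 34% in wild type, and the highest wild type library lay above the lowest of atino80-6.

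The acyl-CoA oxidases catalyse the first oxidation and differ in the chain length they prefer. ACX1 and ACX2 lay below wild type, and only ACX2 passed the test. ACX2, the long-chain oxidase, had 118, 119 and 122 FPKM in the libraries labelled atino80-6, against 138, 149 and 145 FPKM in wild type. The groups were apart with little spread in either, and the log2 change was -0.27 ± 0.08 (limma adjusted p = 0.026). This small fall lost its call without atino80-6 1 or 2 or wild type 2 or 3, with adjusted p of 0.075, 0.096, 0.11 and 0.092.

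ACX1, which takes medium to long chains and also serves jasmonate synthesis, had 68.8, 76.0 and 70.6 FPKM in the libraries labelled atino80-6, against 84.4, 77.0 and 76.4 FPKM in wild type. The atino80-6 libraries were lower in all 3, narrowly so for the second, and the log2 change of -0.14 ± 0.08 did not pass (adjusted p = 0.21). ACX5, the close relative of ACX1, was a minor form at 8.5 ± 0.543 FPKM in atino80-6 and 7.99 ± 0.978 FPKM in wild type (SD, n = 3 each; adjusted p = 0.54). The medium-chain oxidase ACX3 averaged 27.2 and 25.5 FPKM (adjusted p = 0.35) and the short-chain oxidase ACX4 201 and 203 FPKM (adjusted p = 0.95) in atino80-6 and wild type.

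The multifunctional proteins carry the hydratase and dehydrogenase steps of the cycle. MFP2, the form linked to seedling growth on stored oil, had 79.8, 71.6 and 59.5 FPKM in the libraries labelled atino80-6, against 45.4, 51.4 and 56.5 FPKM in wild type. The groups did not overlap, although atino80-6 3 lay close to wild type 3, and the log2 change was 0.46 ± 0.13 (limma adjusted p = 0.022). Without atino80-6 1 or 2 or wild type 1 or 2 the change was 0.36, 0.44, 0.37 and 0.46 and no longer passed (adjusted p = 0.072, 0.078, 0.054 and 0.063).

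AIM1, the other multifunctional protein, named for an inflorescence phenotype, had 35.7, 33.6 and 36.5 FPKM in the libraries labelled atino80-6, against 30.4, 38.4 and 39.5 FPKM in wild type. The atino80-6 values lay inside the wild type range, and the log2 change was -0.03 ± 0.11 (adjusted p = 0.87). AIM1 overlaps AT4G29000 on the opposite strand in the reference annotation, and the labels do not say whether reads kept their strand. The share of AIM1 in the summed AIM1 and MFP2 FPKM was 30.9%, 31.9% and 38.0% in atino80-6 and 40.1%, 42.8% and 41.2% in wild type, without overlap.

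KAT2, the thiolase that releases acetyl-CoA at the end of each turn, had 228, 198 and 195 FPKM in the libraries labelled atino80-6, against 145, 163 and 187 FPKM in wild type. All 3 atino80-6 libraries were above wild type, the lowest by a small margin, and the log2 change of 0.33 ± 0.12 fell short of the threshold (limma adjusted p = 0.062). It passed without wild type 1 and atino80-6 3 together (0.29, adjusted p = 0.049) and after quantile normalization (0.34, adjusted p = 0.029). In the authors' deposited table it passed too (0.33, adjusted p = 0.019). KAT2 also passed without wild type 3 (0.42, adjusted p = 0.046), the highest library of wild type, whose loss had to raise the change. KAT2 made up 98.6% of the summed FPKM of the KAT genes in both genotypes. Of its relatives, KAT1 averaged 2.42 and 2.13 FPKM in atino80-6 and wild type (adjusted p = 0.31). KAT5 averaged 0.412 and 0.185 FPKM, on 7 to 30 reads per library, with a log2 change of 1.17 ± 0.41 (adjusted p = 0.056). It passed with limma voom (1.22, adjusted p = 0.049). It also passed without wild type 1, alone (1.53, adjusted p = 0.019) or together with atino80-6 3 (1.68, adjusted p = 0.017). Wild type 1 was its highest wild type library and atino80-6 3 its lowest of atino80-6. Leaving them out had to raise the change, so these settings are no check on KAT5.

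**Figure D2:**
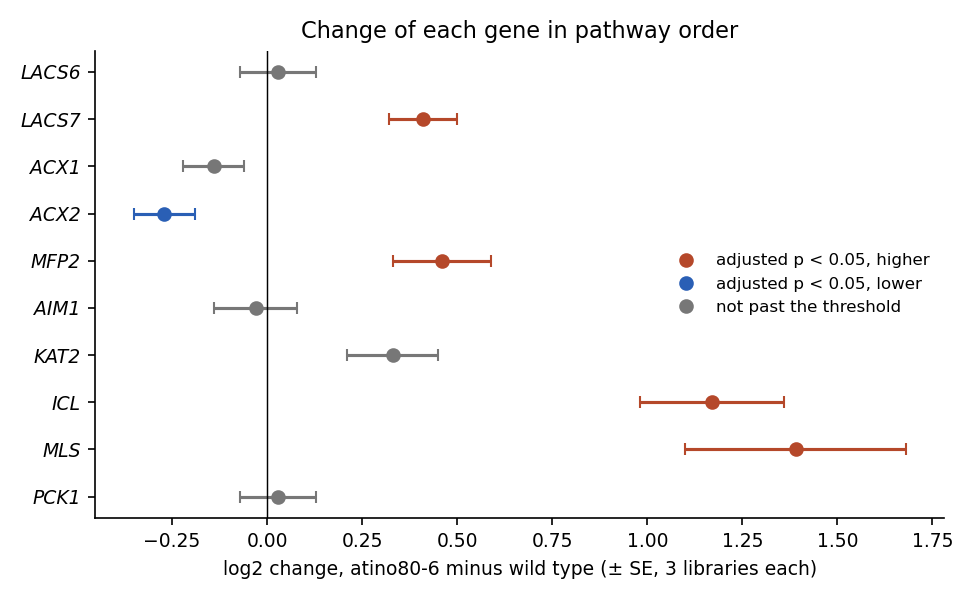
Log2 change (atino80-6 minus wild type, points with SE bars, 3 libraries each) of the 10 genes from fatty acid activation at the top to PCK1 at the bottom, coloured by whether the change passed an adjusted p of 0.05. The 2 glyoxylate cycle genes lie at 1.17 and 1.39, and the beta-oxidation genes lie between -0.27 and 0.46.

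ICL, which splits isocitrate into succinate and glyoxylate, was the most abundant of the 10 in both genotypes. It had 2066, 2074 and 1540 FPKM in the libraries labelled atino80-6, against 981, 746 and 789 FPKM in wild type. The lowest atino80-6 library lay well above the highest of wild type, and the log2 change was 1.17 ± 0.19 (limma adjusted p = 0.0021). With between 57142 and 155713 reads per library, counting error is small beside the spread between libraries. By mean FPKM, 7 genes of the whole table stood above ICL in atino80-6 and 36 in wild type. Of all tested genes, 94.1% had a log2 change no larger than that of ICL.

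MLS, which joins glyoxylate and acetyl-CoA to malate, had 327, 267 and 155 FPKM in the libraries labelled atino80-6, against 113, 62.8 and 105 FPKM in wild type. The genotypes did not overlap, but MLS varied most of the 10 between replicates, with coefficients of variation of 35.1% in atino80-6 and 28.7% in wild type. Its log2 change was 1.39 ± 0.29 (limma adjusted p = 0.0068). MLS made up 13.7%, 11.4% and 9.12% of the summed ICL and MLS FPKM in atino80-6 and 10.3%, 7.77% and 11.8% in wild type, so the ratio of the pair overlapped between genotypes while both levels rose.

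The rises of ICL and MLS passed with any single library left out. ICL stood between 1.09 (without wild type 2) and 1.31 (without atino80-6 3), and MLS between 1.13 (without wild type 2) and 1.70 (without atino80-6 3). Without wild type 1 and atino80-6 3 together, the changes were 1.43 (limma adjusted p = 3e-05) and 1.86 (adjusted p = 0.0005). For both genes wild type 1 was the highest library of wild type and atino80-6 3 the lowest of atino80-6. Leaving them out therefore had to raise both changes, so this setting is no check on them.

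PCK1, the cytosolic carboxykinase that makes phosphoenolpyruvate from oxaloacetate, had 378, 380 and 356 FPKM in the libraries labelled atino80-6, against 365, 362 and 363 FPKM in wild type. The wild type values had a coefficient of variation of 0.445%, the lowest of the 10, and lay inside the atino80-6 range. The log2 change was 0.03 ± 0.10 (adjusted p = 0.84). Its minor relative PCK2 (AT5G65690) fell, with 4.69, 5.73 and 5.47 FPKM in atino80-6, against 8.14, 9.41 and 10.6 FPKM in wild type (log2 change -0.82 ± 0.12, adjusted p = 0.0012). PCK2 was 1.41% of the summed PCK1 and PCK2 FPKM in atino80-6 and 2.51% in wild type, so the fall hardly touched the total.

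Summed over the 10 genes, the libraries labelled atino80-6 held 3345, 3258 and 2574 FPKM and those of wild type 1937, 1685 and 1801 FPKM. Without ICL and MLS the sums were 952, 917 and 880 FPKM in atino80-6 and 843, 876 and 907 FPKM in wild type, which overlapped. ICL alone made up 61.9% of the summed mean FPKM in atino80-6 and 46.4% in wild type.

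Levels of different genes were ordered by FPKM, which the authors' values give per length. In the libraries labelled atino80-6 the order was ICL, PCK1, MLS, KAT2, ACX2, ACX1, MFP2, AIM1, LACS6 and LACS7. Neighbours overlapped in their library values for MLS with KAT2 and for ACX1 with MFP2. In wild type the order was ICL, PCK1, KAT2, ACX2, MLS, ACX1, MFP2, AIM1, LACS6 and LACS7, and KAT2 with ACX2 and MLS with ACX1 overlapped. MLS was thus the third in atino80-6 and the fifth in wild type. The length behind the FPKM lay nearer to the whole gene span, introns included, than to the exons for 9 of the 10 genes, which lowers intron-rich genes. The exception was ACX2, with a length of 2880 bases against 2682 exon bases and a span of 3164. For MLS the length was 2468 bases, about midway between 2054 exon bases and a span of 2875, and slightly nearer to the span. Per kilobase of annotated exons, MLS changed places with KAT2 in atino80-6 (186 to 393 and 333 to 391 over the libraries) and with ACX1 in wild type (75.5 to 135 and 125 to 138), both pairs overlapping, and the other ranks were as before.

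Seed storage transcripts, which are left over from the seed or made late in embryos, moved with part of this pattern. The summed FPKM of 9 such genes (albumins SESA1 to SESA4, cruciferins CRA1, CRU2 and CRU3, oleosins OLEO1 and OLEO2) was 1038, 1539 and 169 in the libraries labelled atino80-6, against 452, 138 and 506 in wild type. The libraries lowest in this sum, atino80-6 3 and wild type 2, were also the lowest of their genotype for ICL and MLS. Most of the sum was CRA1, at 808, 1176 and 130 FPKM in atino80-6 and 356, 115 and 389 FPKM in wild type. SESA1 was lowest in wild type 3. Over all tested genes, deviations from the group mean correlated most for atino80-6 3 with wild type 2, though weakly (0.25). Why these 2 libraries were alike was not tested. The part of seed transcripts in the rise of ICL and MLS was not tested. In these 2 libraries ICL had 1540 and 746 FPKM and MLS 155 and 62.8 FPKM.

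Of the 9 seed storage genes, 2 passed the test, both higher in the libraries labelled atino80-6. This share, 22.2%, is near the 17.7% of all tested genes that were higher. All 3 atino80-6 libraries lay above all 3 of wild type for 1 of the 9, against 24.1% of tested genes. SESA1 had 5.64, 8.68 and 1.76 FPKM in atino80-6, against 0.411, 0.327 and 0.0586 FPKM in wild type (log2 change 3.97 ± 0.69, adjusted p = 0.0025), and the albumin genes are related enough that their reads are shared with uncertainty. OLEO2 averaged 56.8 ± 33.0 FPKM in atino80-6 and 15.5 ± 5.86 FPKM in wild type (SD, n = 3 each; adjusted p = 0.033) and lost its call without atino80-6 1 or 2 or wild type 2 or 3 (adjusted p = 0.10, 0.12, 0.11 and 0.058) and with robust fitting (adjusted p = 0.13). The median log2 change of the list was 1.71. Of the organ markers, PYK10 rose (0.55, adjusted p = 0.021, but 0.02 after quantile normalization, and not past the threshold without atino80-6 1 or 2 or wild type 2 or 3, at adjusted p of 0.066, 0.071, 0.090 and 0.064), SCR fell (-0.33, adjusted p = 0.0088) and the other 3 did not pass.

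**Figure D3:**
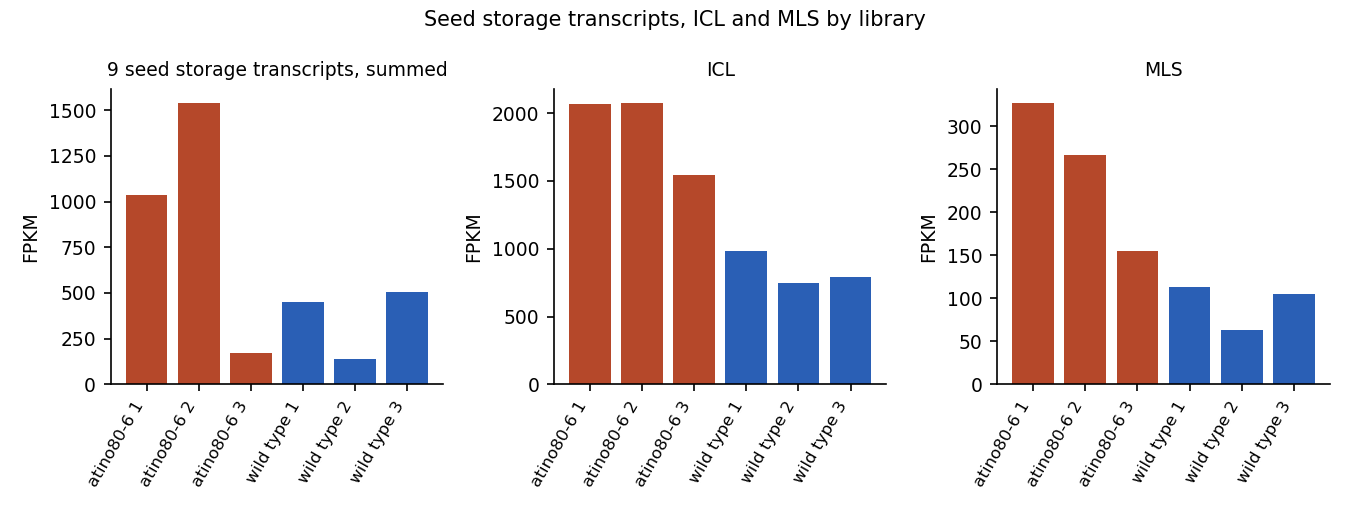
Summed FPKM of 9 seed storage transcripts (left), FPKM of ICL (middle) and FPKM of MLS (right) in each library, atino80-6 in red and wild type in blue. The third atino80-6 library and the second wild type library are the lowest of their genotype in all 3 panels, and ICL and MLS of every atino80-6 library stand above every wild type library.

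Upstream of the 10 genes, oil body lipolysis and transport into the peroxisome gave 0 of 6 genes higher and 2 lower. Of all tested genes, 17.7% were higher and 16.6% lower, and the median log2 change of the list was 0.01. The lipase gene SDP1, which starts oil breakdown, had 38.9, 40.1 and 41.9 FPKM in the libraries labelled atino80-6, against 48.8, 54.0 and 50.8 FPKM in wild type, without overlap (log2 change -0.34 ± 0.07, adjusted p = 0.0077). PXA1, the ABC transporter that imports fatty acids, averaged 17.2 and 17 FPKM in atino80-6 and wild type (adjusted p = 0.84). The adenine nucleotide carrier gene PNC2 fell (-0.24 ± 0.08, adjusted p = 0.044), a call that ended without any of 5 single libraries, all but atino80-6 3 (adjusted p between 0.053 and 0.13), without wild type 1 and atino80-6 3 (adjusted p = 0.061) and in the authors' deposited table (adjusted p = 0.061). Without atino80-6 3, alone or with wild type 1, there was 1 gene higher in this list.

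Among 16 tested genes of 17 listed for other steps of beta-oxidation, 2 were higher and 1 lower (median log2 change 0.12). These shares, 12.5% and 6.25%, were below those of all tested genes, 17.7% and 16.6%. ACN1, a peroxisomal acetyl-CoA synthetase, had 38.3, 41.2 and 40.4 FPKM in the libraries labelled atino80-6, against 25.5, 30.5 and 29.9 FPKM in wild type (log2 change 0.48 ± 0.09, adjusted p = 0.0031). The enoyl-CoA isomerases, needed for unsaturated fatty acids, went opposite ways. ECI1 fell to 9.90, 10.1 and 15.4 FPKM in atino80-6, against 27.7, 30.1 and 27.8 FPKM in wild type (-1.30 ± 0.17, adjusted p = 0.00054). ECI2 rose by 0.52 ± 0.16 (adjusted p = 0.033), but not without atino80-6 1 or 2 or wild type 2 or 3 (adjusted p = 0.096, 0.11, 0.11 and 0.080), and its reads may be shared with the neighbouring relative ECI3. The genes higher numbered between 1 and 5 when libraries were left out. The count was 1 without atino80-6 1 or 2 or wild type 2 or 3, 3 without atino80-6 3 and 4 without wild type 1. It was 5 when wild type 1 and atino80-6 3 were both left out. In that setting the neighbouring lists together went from 27 genes higher to 35, so the gain was not confined to this list.

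In a list of other glyoxylate cycle and organic acid steps, 5 of 11 tested genes were higher and 1 was lower (median log2 change 0.32). These shares were 45.5% and 9.09%, against 17.7% and 16.6% of all tested genes. The list is wider than the cycle itself and holds mitochondrial carriers, so its count is not one of glyoxylate cycle enzymes. PMDH2, a peroxisomal malate dehydrogenase, rose most, with 153, 167 and 138 FPKM in the libraries labelled atino80-6, against 45.7, 35.8 and 32.8 FPKM in wild type (2.01 ± 0.13, adjusted p = 1.4e-05). The mitochondrial succinate-fumarate carrier gene SFC1 had 17.7, 16.7 and 12 FPKM in atino80-6, against 6.61, 6.08 and 6.48 FPKM in wild type (1.25 ± 0.15, adjusted p = 0.00035). The mitochondrial carrier gene BOU rose 1.64-fold (adjusted p = 0.00047) and PMDH1 1.41-fold (adjusted p = 0.015). Without atino80-6 2 or wild type 2, PMDH1 lost its call (adjusted p = 0.060 and 0.062) and 3 genes of the list were higher. Without atino80-6 1 or 2 or wild type 2 or 3 the list had 0 lower. Without wild type 1 and atino80-6 3 it had 7 higher and 2 lower. In that setting the neighbouring lists together went from 27 higher and 7 lower to 35 and 10. The gain was thus not confined to this list.

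Downstream, 7 of 15 genes of gluconeogenesis and sucrose synthesis were higher and 2 lower (median log2 change 0.20). That is 46.7% and 13.3%, against 17.7% and 16.6% of all tested genes. The cytosolic fructose-bisphosphatase gene cyFBP had 136, 128 and 108 FPKM in the libraries labelled atino80-6, against 67.5, 67.6 and 70.3 FPKM in wild type (0.85 ± 0.10, adjusted p = 0.00027). UGP2, a UDP-glucose pyrophosphorylase, rose 2.30-fold (adjusted p = 8.6e-05), and the sucrose phosphate synthase genes SPSA2 and SPSC each 1.70-fold (adjusted p = 0.013 and 0.002). PFPA2 (AT1G76550), listed as a subunit of the pyrophosphate-dependent phosphofructokinase, fell with PCK2 (-0.79 ± 0.08, adjusted p = 0.00015). These genes also serve sugar metabolism outside oil mobilisation.

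Genes of peroxisome biogenesis were higher in 6 of 24 (25%, against 17.7% of all tested genes) and lower in 1 (4.17%, against 16.6%). The median log2 change was 0.15. LON2, a peroxisomal protease, rose 1.64-fold (adjusted p = 0.00048), PEX3A, a membrane peroxin, 1.63-fold (adjusted p = 0.0032) and PEX5, the import receptor, 1.39-fold (adjusted p = 0.0039). PEX11C, a factor of peroxisome division, fell to 0.803 of wild type (adjusted p = 0.0079). The genes lower numbered 2 without atino80-6 3, after quantile normalization, with equal library totals and without wild type 1 and atino80-6 3.

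Leaf-type peroxisome enzymes and catalases were higher in 7 of 9 genes (77.8%, against 17.7% of all tested genes) and lower in 0 (against 16.6%). The median log2 change was 1.40. GOX1, a glycolate oxidase of photorespiration, had 179, 233 and 176 FPKM in the libraries labelled atino80-6, against 14.8, 12.5 and 10.9 FPKM in wild type (3.94 ± 0.14, adjusted p = 1.3e-06), with the caution that its neighbour GOX2 is closely related. GGAT1 and GGAT2, glutamate:glyoxylate aminotransferases, rose 9.37-fold and 5.76-fold, and HPR1, hydroxypyruvate reductase, 5.09-fold (adjusted p at most 7.3e-06). ICL and MLS therefore rose in the same libraries as the leaf-type enzymes. Without wild type 1, alone or with atino80-6 3, 1 gene of this list was lower. The authors' deposited table had 8 of the list higher and 1 lower, against 16.1% and 15.1% of the genes with an adjusted p there.

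**Figure D4:**
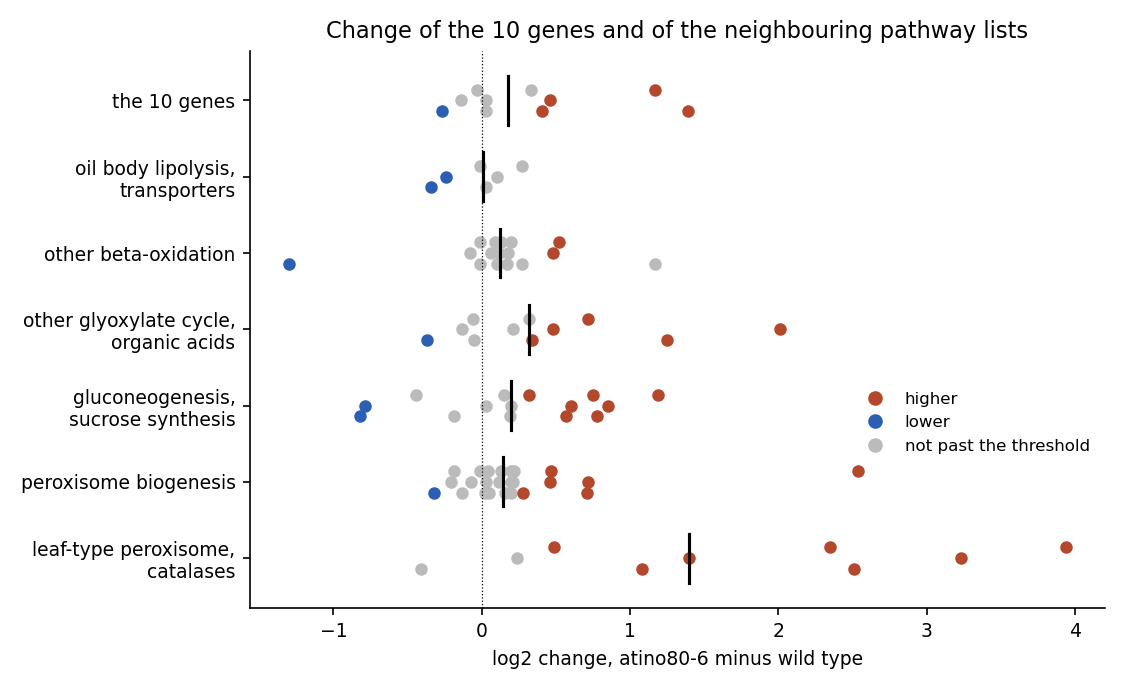
Log2 change (atino80-6 minus wild type) of each tested gene of the 10 and of 6 neighbouring lists; colour marks genes past an adjusted p of 0.05 and black bars the list medians. The median is 0.18 for the 10 genes and 1.40 for the leaf-type enzymes, against 0.00 for all tested genes.

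Among the 10 genes, the changes of ICL, MLS, LACS7, MFP2, KAT2, ACX1, ACX2 and PCK1 kept their sign with each single library left out, that of PCK1 at 0.01 to 0.06, within its SE of 0.10. The changes of LACS6 and AIM1 took either sign, between -0.05 and 0.09 for LACS6 and between -0.14 and 0.04 for AIM1, so neither is given a direction. With equal library totals the median of all tested genes moved to -0.04, and PCK1, at -0.01 there, moved by as much.

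**Figure D5:**
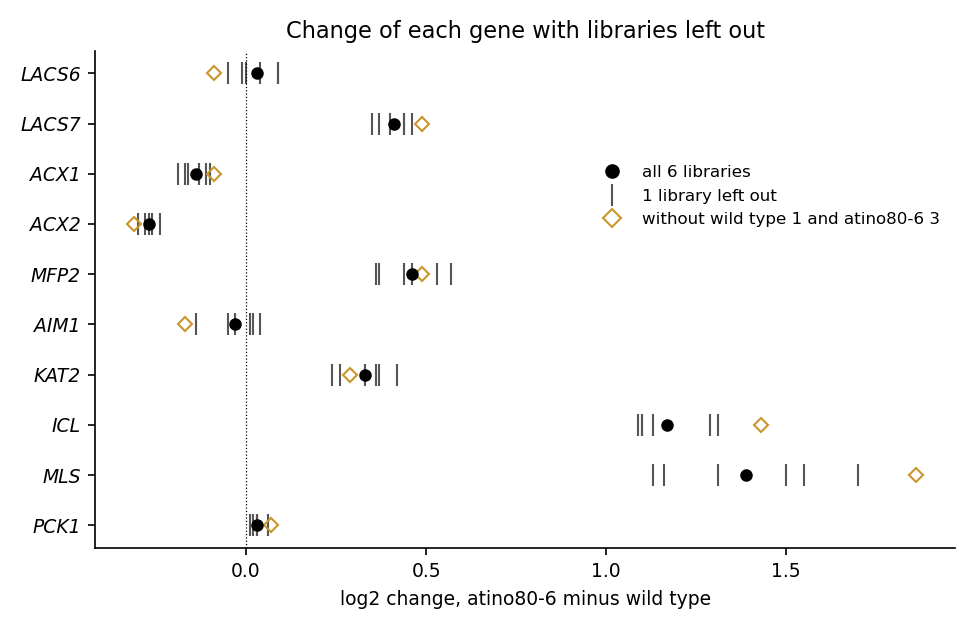
Log2 change (atino80-6 minus wild type) of the 10 genes with all 6 libraries (dots), with each library left out (ticks) and without wild type 1 and atino80-6 3 (diamonds). ICL stays between 1.09 and 1.43 and MLS between 1.13 and 1.86, while LACS6 and AIM1 cross 0.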

How the data were processed

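The submitters' processing notes list the TAIR10 build and the tools HISAT2, featureCounts, DESeq2, cutadapt, FastQC, deepTools and SAMtools; their versions and the annotation are not given in the sources used here. The authors deposited FPKM per library, scaled with DESeq2 size factors, and a DESeq2 comparison with, per the file headers, a mean signal of normalized counts, a log2 fold change with its error, a score (change over error), and p-values. Because the table held FPKM, normalized counts were recovered as FPKM times mean signal over mean FPKM. With the size factors undone, 146922 of 146922 values came out as whole reads, to within 0.01 of a read. The length behind the FPKM lay nearer to the gene span than to the exons for 73.3% of 19224 genes with introns in the TAIR10.1 reference, which matched 99.0% of identifiers. Since the builds differ, no coordinates or sequences are printed, and the planned search for sequence features was not run.

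Log2(normalized counts + 1) of the 20222 genes with a mean of at least 10 was fitted with limma 3.58.1 in R 4.3.3 on genotype, with a trend, two-sided, and Benjamini-Hochberg adjustment over all tested genes; a gene rose or fell when adjusted p was under 0.05. Folds are ratios of mean FPKM. The fit was tested on simulated data. No count model was run on the recovered reads; limma voom was used instead. All 10 members are named; every other list is represented by its most changed genes among those called, at most 4 in each direction, plus PCK2, KAT1, KAT5, ACX3, ACX4, ACX5, SDP1, PXA1 and INO80. The members and all lists were chosen with earlier results of these data known. Tables and figures used Python 3.11.15, pandas 2.3.3, numpy 2.4.6 and matplotlib 3.10.9. Some named genes that meet this rule are not reported here.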

Additional observations from a re-analysis of the deposited data

How the results depend on the processing

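Over 20 alternatives (pseudocounts of 0.5 and 5, no filter, a mean of at least 50, equal totals, quantile normalization, FPKM with a pseudocount of 0.1, limma voom, robust fitting, the block, left-out libraries, stricter limits, the authors' table), ICL kept its call between 0.96 and 1.43 and MLS between 1.13 and 1.86. Higher members numbered 3 to 5 and lower ones 0 or 1 with single libraries left out. Lower members were 0 with the replicate block and at adjusted p under 0.01. At a 1.5-fold limit 2 members were higher and 0 lower, and of the other lists 17 genes were higher and 3 lower. These lists had 27 higher and 7 lower at adjusted p under 0.05 alone, and 21 to 31 and 5 to 8 with single libraries left out. The share of all tested genes is not given for the stricter limits, the block or left-out libraries. Counts in those settings, here and above, cannot be read against it.

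Same-numbered libraries did not deviate together (correlations 0.03, -0.19 and -0.10), and no library correlated best with its own number. The replicate block therefore shares only a number. With the block, 27 other genes were higher and 6 lower, and ACX2, PNC2 and PYK10 had limma adjusted p of 0.075, 0.097 and 0.066.

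The scale per kilobase of exons was chosen after seeing the data. Shares from normalized counts, which are not per length, were for MLS 8.27% in atino80-6 and 7.19% in wild type, ACX5 8.51% and 7.34%, KAT2 98.9% in both, PCK2 1.20% and 2.15%, LACS7 36.3% and 30.4%, and AIM1 36.6% and 44.5%. Depth did not limit the members, with at least 1119 reads in each library; KAT5 and the albumins rest on fewer reads.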
